A study of Mus musculus with 9 samples.

Results

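Cells carrying a reporter for alpha-fetoprotein were compared between day 21 and day 7 of the differentiation of mouse embryonic stem cells. The comparison uses 6 of the 9 arrays of the series, the 3 of day 21 and the 3 of day 7, and the 3 arrays of day 4 enter the estimate of the spread. All 9 samples came from embryonic stem cells with an Afp::GFP transgene, in which the alpha-fetoprotein promoter drives green fluorescent protein, so the sort selects cells by the activity of that promoter. Per the labels' protocols the cells were grown as embryoid bodies in medium with fetal bovine serum, transferrin and ascorbic acid, and Afp-expressing cells were then isolated by flow cytometry. The groups differ in the day of collection. Total RNA was measured on a whole-transcript array, and values are log2 signals per probe set. A gene is represented by the brightest probe set that carries its symbol alone, which gave 22180 genes. Nothing in the labels states that the 3 arrays of a day were made from different cultures, and the p-values rest on array-to-array spread that could be technical in origin.

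Alpha-fetoprotein is made in the embryo by the visceral endoderm, the absorptive epithelium around the egg cylinder, and later by fetal liver. Embryoid bodies form an outer visceral endoderm within days, and longer culture adds other epithelia, stroma and hepatic cells. An Afp reporter can therefore mark different cells at different ages of the culture. In sorted bulk samples, fewer cells of a type and less RNA per cell cannot be told apart.

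Afp itself was high on all 6 arrays. Its log2 signals were 10.68, 10.59 and 10.54 at day 7 and 13.12, 13.14 and 12.95 at day 21. The day 21 arrays were all above the day 7 arrays, with a log2 change of 2.47 ± 0.11 (SE) and a limma adjusted p of 1.78e-07. As a reference for background, the 95th percentile of 1105 olfactory receptor genes, which most cells do not express, lay at 6.06 at day 7 and 6.03 at day 21. Alb, encoding albumin, read 5.36, 5.22 and 5.36 at day 7, below that reference, and 11.53, 11.71 and 11.25 at day 21. Among transcription factors of visceral endoderm and liver, Hnf4a changed by -1.03 ± 0.18 (limma adjusted p = 0.00178), Gata4 by -1.13 ± 0.13 and Sox17 by -0.63 ± 0.10, all lower at day 21 and all above background on both days. Gata6 (0.03 ± 0.11) and Foxa2 (-0.24 ± 0.15) did not pass. Their 95% intervals ran from -0.21 to 0.27 and from -0.57 to 0.10.

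Over all genes, 2740 were called higher at day 21 (12.4%) and 2366 lower (10.7%) by limma at an adjusted p under 0.05. A change of at least 2-fold was called for 1030 genes upward (4.64%) and for 400 downward (1.80%). Large changes were more often rises: 286 genes were at least 4-fold higher and 86 at least 4-fold lower. Of these, 155 of the risers were below background at day 7 and 29 of the fallers were below it at day 21, so their folds are ratios of signal to a floor. In all, 648 genes (2.92%) were called higher and went from below background at day 7 to above it at day 21, and 206 (0.929%) were called lower and went the other way. The split between directions depends on scaling. Rises made up 53.7% of calls with the deposited values, and 37.6% after each array was centred on its median, a step that moved the median change of all genes from -0.03 to -0.13.

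**Figure D1:**
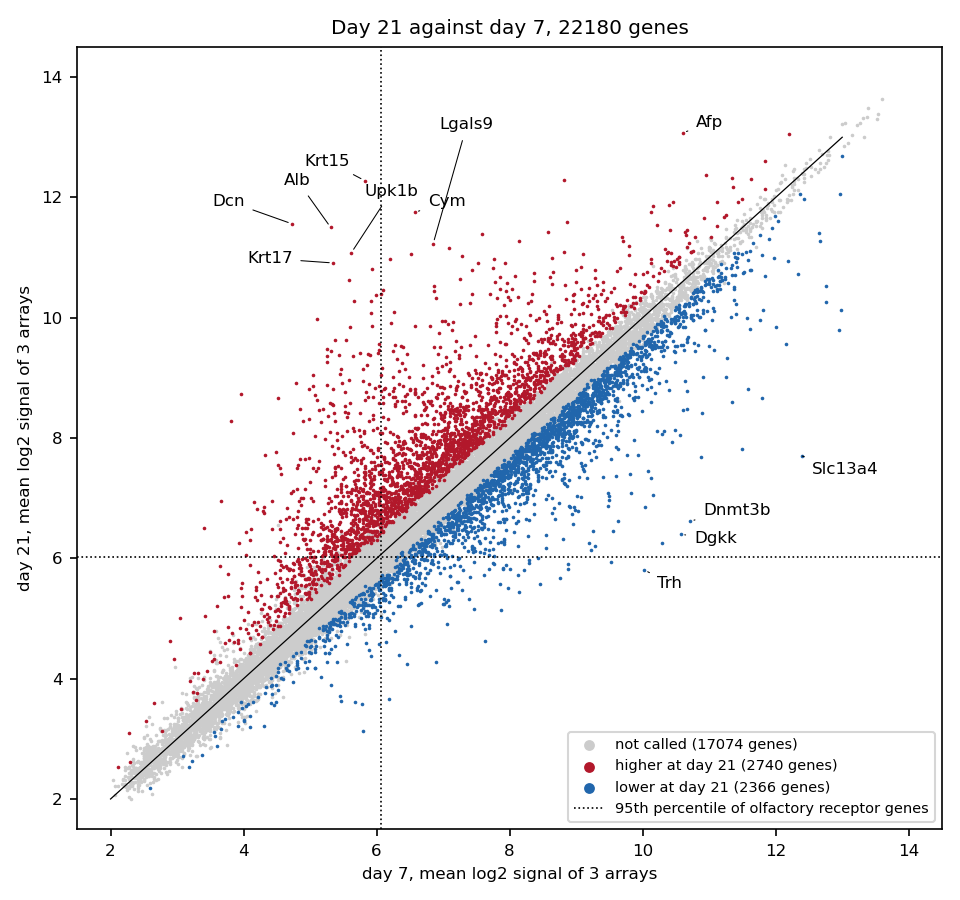
Mean log2 signal of the 3 day 21 arrays (vertical) against the 3 day 7 arrays (horizontal) for each of 22180 genes, coloured by limma's call, with dotted lines at background. Krt15, Dcn and Alb lie far above the diagonal from day 7 levels below background, and Slc13a4 lies farthest below it.

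The largest rises outside the hepatic, stromal and stress lists were led by keratins and a uroplakin. Those lists need not be complete, so genes of hepatic, stromal or stressed cells can remain among the risers. Krt15, a keratin of basal epithelial cells, read 5.77, 5.83 and 5.86 at day 7 and 12.52, 12.21 and 12.11 at day 21, an 88.3-fold difference in signal (log2 change 6.46 ± 0.13). Krt17, a keratin of basal and regenerating epithelium, read 5.04, 5.38 and 5.64 at day 7 and rose by 5.56 ± 0.19. Upk1b, a tetraspanin of the bladder surface plaque, went from 5.44, 5.72 and 5.71 to 11.18, 11.01 and 11.05. In each of these the day 7 arrays lay below background and the day 21 arrays were far above it.

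Cym, which encodes the gastric milk-clotting protease chymosin, read 6.44, 6.5 and 6.77 at day 7 and 11.67, 11.77 and 11.82 at day 21. Lgals9, encoding the secreted lectin galectin-9, was above background on all 6 arrays and rose by 4.39 ± 0.14. Enzymes among the largest rises were Ugt2b34, a glucuronosyltransferase (4.88 ± 0.17), Vnn1, a pantetheinase (4.25 ± 0.32), and Cyp11a1, which cleaves the cholesterol side chain in the first step of steroid synthesis (4.23 ± 0.10). Cyp11a1 was very even, at 5.42, 5.22 and 5.12 on the day 7 arrays and 9.47, 9.51 and 9.47 on the day 21 arrays. Also among the 15 were Krt4, a keratin of internal layered epithelia (4.88 ± 0.19), Sptssb, a subunit of serine palmitoyltransferase (4.48 ± 0.30), the secreted guidance protein Sema3c (4.36 ± 0.19) and the membrane protein Tm4sf4 (4.24 ± 0.17). Of the 15, 11 were below background at day 7, and the largest limma adjusted p was 5.14e-06 (Vnn1). Keratins and UDP-glucuronosyltransferases have close paralogs, and a probe set can read more than 1 of them.

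The largest falls were those of Slc13a4, Trh, Dgkk and Dnmt3b, in that order. Slc13a4, a sulfate transporter, read 12.42, 12.35 and 12.43 at day 7 and 7.87, 7.57 and 7.66 at day 21. Dnmt3b, a de novo DNA methyltransferase, went from 10.73, 10.66 and 10.74 to 6.91, 6.57 and 6.37, a log2 change of -4.09 ± 0.13. Lin28a, which blocks maturation of let-7 microRNAs, went from 10.04, 10.09 and 9.96 to 6.92, 6.96 and 6.71. The arrays of each day were close to each other. The separation of the days was required by the rule that chose these genes.

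Cfc1, an EGF-CFC co-receptor for Nodal, changed by -3.58 ± 0.19 and reached background at day 21 (5.95, 6.32 and 5.54). Gldc, the decarboxylase of the glycine cleavage system, changed by -4.04 ± 0.13, and Trh, the precursor of thyrotropin-releasing hormone, by -4.20 ± 0.13. Dgkk, an X-linked diacylglycerol kinase, changed by -4.17 ± 0.22, the immunoglobulin-family receptor Prtg by -3.69 ± 0.13, and Scd1, the stearoyl-CoA desaturase, by -3.09 ± 0.16. Slc16a1, the lactate and pyruvate transporter MCT1, changed by -3.13 ± 0.11 from 11.84, 11.68 and 11.87. The other members of the 15 were Gramd1b, a carrier of cholesterol from the plasma membrane (-3.19 ± 0.15), Spink1, a trypsin inhibitor (-3.15 ± 0.12), Prss12, a secreted serine protease (-3.10 ± 0.12), Fndc3c1 (-3.08 ± 0.16) and Pwwp3b (-3.07 ± 0.22). Of these 15, 3 were below background at day 21, and the largest limma adjusted p was 3.54e-06 (Pwwp3b). All 30 of these largest changes stayed called in the same direction under each of the 13 alternative analyses. They were chosen for size and separation on these same arrays, so this is not a separate check.

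**Figure D2:**
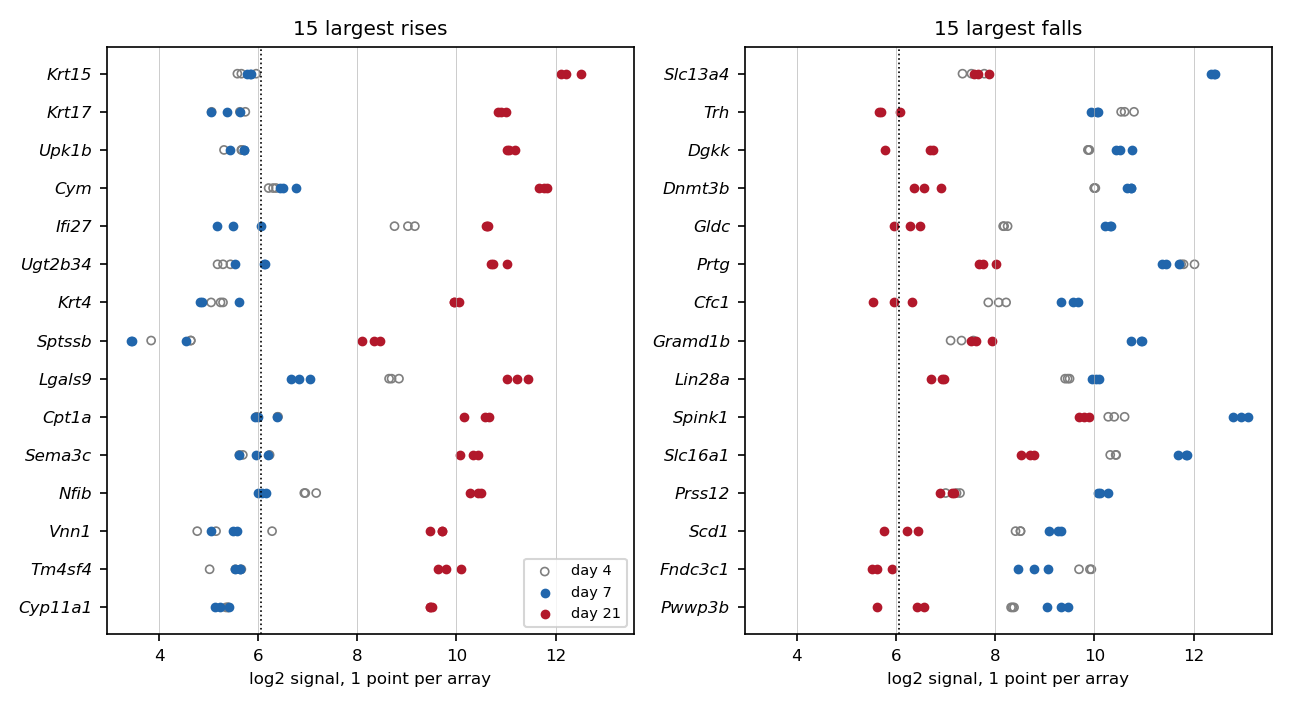
Log2 signal on each of the 9 arrays for the 15 largest rises (left) and the 15 largest falls (right) between days 7 and 21, with a dotted line at background. Blue and red points do not overlap for any of the 30 genes, because the rule of choice required this. Over all genes, day 21 lay wholly above day 7 for 17.1% and wholly below it for 18.4%. The open day 4 points show that Ifi27 and Lgals9 were higher at day 4 than at day 7.

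Most listed genes of urothelium and layered epithelia rose. Of 32 measured, 24 were called higher (75%, against 12.4% of all genes) and 1 lower, with a median log2 change of 1.15 against -0.03 over all genes. Besides Krt15, Krt17, Upk1b and Krt4, the risers included Krt14 (3.52 ± 0.16), the basal partner keratin, Upk1a (2.18 ± 0.12) and Upk3a (1.17 ± 0.13) of the urothelial plaque, and Trp63 (1.16 ± 0.10), the master regulator of stratified epithelia. Upk2 (0.44 ± 0.15) did not pass. Gata3, a factor of urothelium and trophoblast, was the member lower at day 21 (-0.45 ± 0.12). The call of Gata3 was lost when probe sets of a gene were averaged (-0.23) and in 3 of the 6 analyses that left out an array. On each of the 3 day 21 arrays the mean log2 signal of the list lay between 7.48 and 7.54, against 5.70 to 5.87 at day 7.

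Across the keratin family, 12 of 53 measured genes were called higher (22.6%) and 0 lower (1 lower after median centring), and 9 of the 12 were at least 2-fold higher. Krt23 rose by 3.64 ± 0.14. The keratins of simple epithelium were already bright and did not pass: Krt8 read 11.07 at day 7 and 11.24 at day 21 (means of 3 arrays), and Krt18 read 11.70 and 11.59. Of 39 genes of epithelial junctions and identity, 25 were called higher and 1 lower (median 0.70). Ehf, an epithelial ETS factor, rose by 3.67 ± 0.18, Cldn4, a tight-junction claudin, by 3.14 ± 0.20, Ppl, which encodes the cornified-envelope protein periplakin, by 2.20 ± 0.15, and Cdh1, E-cadherin, by 0.99 ± 0.16. Cldn6, a claudin of embryonic epithelia, was the member that fell, by 0.71 on the log2 scale.

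Of 34 genes of the basement membrane and its integrin receptors, 23 were called higher and 2 lower (median 0.72). Itgb4 (1.91 ± 0.12), the integrin of hemidesmosomes, and Lamb3 (2.15 ± 0.14), a chain of its ligand laminin-332, both rose, as did Itgb6 (2.18 ± 0.23) and Lama1 (2.16 ± 0.15). Nid2, a laminin-binding nidogen, changed by -1.41 ± 0.13 and Itga5, of the fibronectin receptor, by -1.21 ± 0.11. Of 11 annexins, calcium-dependent membrane-binding proteins, 9 were called higher and 0 lower (median 1.98), led by Anxa1 (3.39 ± 0.34). Gastric and foregut genes were mixed: 8 of 31 were called higher and 1 lower. Next to Cym these included the mucin Muc1 (3.34 ± 0.13), the gastric adhesion protein Vsig1 (2.01 ± 0.25) and Gkn2 (1.52 ± 0.14). Gkn1 (0.08 ± 0.11), Tff1 (0.36 ± 0.13), Tff2 (-0.15 ± 0.24) and Pgc (-0.23 ± 0.15) did not pass, and the pepsinogen Pga5 changed by -0.79 ± 0.12.

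Visceral endoderm genes fell but stayed above background. Of 30 measured, 22 were called lower (73.3%, against 10.7% of all genes) and 3 higher, with a median of -1.08, and all 30 were above background on both days. The falls included Apom, an apolipoprotein (-3.10 ± 0.27), Amot, a regulator of junctions and of YAP (-2.75 ± 0.09), Cubn, the endocytic receptor cubilin (-2.17 ± 0.16), and Amn, its partner amnionless (-0.92 ± 0.14). Spp2 (2.81 ± 0.20), Fgb, the fibrinogen beta chain (1.01 ± 0.13), and Rhox5 (0.59 ± 0.15) were higher. The call of Rhox5 was lost without day 7 replicate 2 and without day 21 replicate 1 (0.52 in both). The mean signal of the list was 9.66 to 9.75 on day 7 arrays and 8.51 to 8.54 on day 21 arrays. Of 27 pluripotency genes, 13 were called lower and 4 higher. Sall4 (-2.50 ± 0.11), Tdgf1 (-2.31 ± 0.10) and Otx2 (-2.02 ± 0.15) fell, Nanog changed by -1.45 ± 0.21, and Pou5f1 (-0.51 ± 0.17) did not pass. Klf5 (1.96 ± 0.12) and Klf4 (1.47 ± 0.18), which are also factors of surface epithelia, rose.

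**Figure D3:**
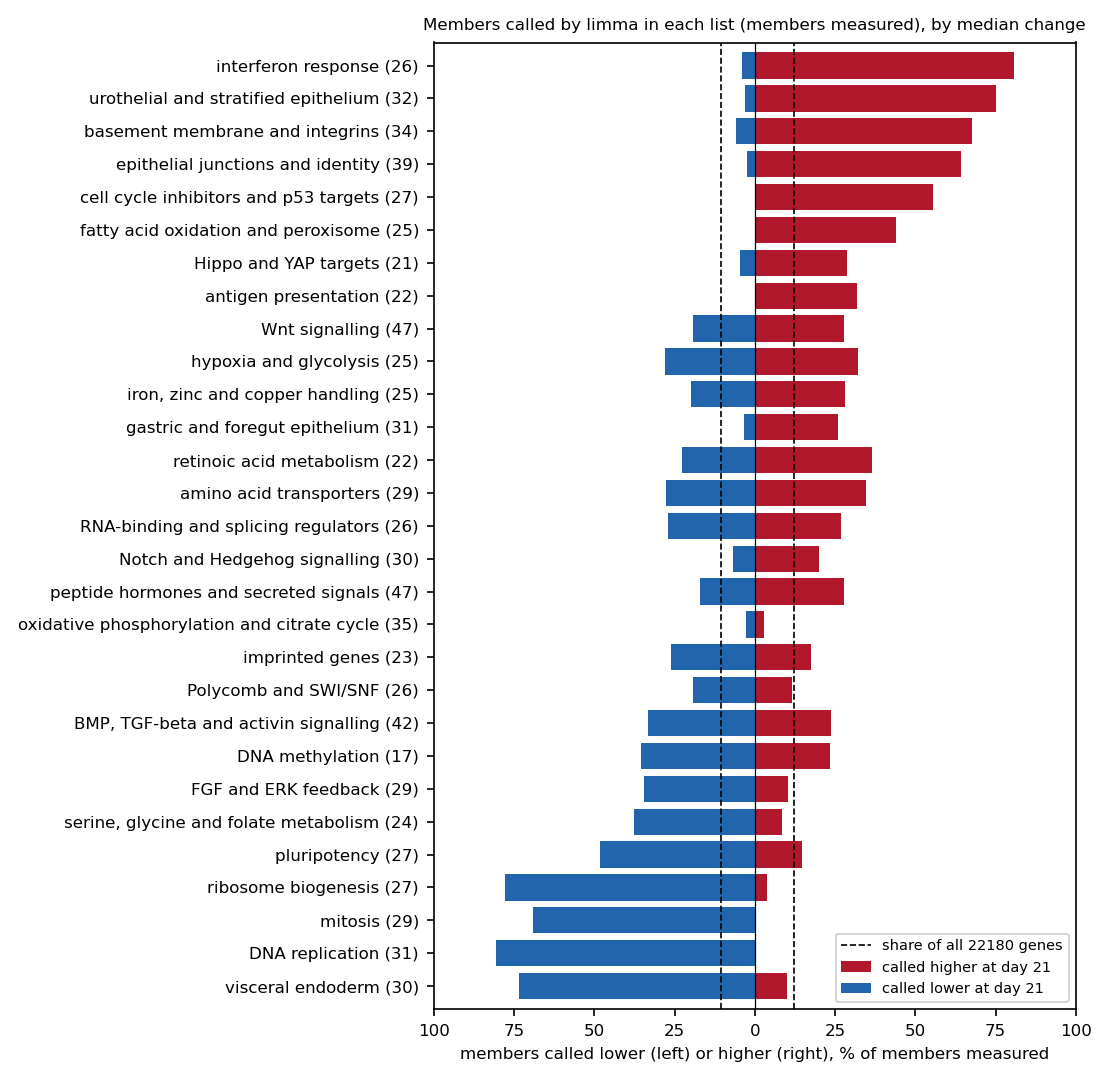
Percent of the measured members of each described list that limma called higher (right, red) or lower (left, blue) at day 21, with dashed lines at the shares over all 22180 genes (12.4% and 10.7%). Interferon genes reach 80.8% on the right, DNA replication genes reach 80.6% on the left, and oxidative phosphorylation stays inside both lines.

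Regulators of DNA methylation moved in opposite directions within the group. Of 17 measured, 6 were called lower and 4 higher. Of the de novo methyltransferases, Dnmt3b fell while Dnmt3a rose from 7.57, 7.62 and 7.43 to 8.64, 8.42 and 8.57 (1.0 ± 0.10). Among the dioxygenases that oxidise 5-methylcytosine, Tet1 changed by -1.07 ± 0.14, Tet2 by 1.46 ± 0.14 and Tet3 by 0.70 ± 0.12. The maintenance factors Hells (-1.08 ± 0.17), Uhrf1 (-0.75 ± 0.11) and Dnmt1 (-0.45 ± 0.10) were lower. Of 26 Polycomb and SWI/SNF genes, 3 were called higher (11.5%, near the share of all genes) and 5 lower, with 9 lower after median centring and 8 when genes below background were left out. Smarca2, encoding the ATPase BRM, rose by 2.19 ± 0.13 and Ezh2, the H3K27 methyltransferase, changed by -0.76 ± 0.12.

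All 4 nuclear factor I genes, DNA-binding proteins of late progenitors in many organs, were called higher; this family was chosen after its values were seen. Nfib read 5.99, 6.07 and 6.15 at day 7 and 10.49, 10.44 and 10.27 at day 21 (4.33 ± 0.11). Nfia rose by 2.81 ± 0.18, Nfix by 1.5 ± 0.16 and Nfic by 1.20 ± 0.15. Of 45 nuclear receptors, 13 were called higher and 2 lower (4 after median centring), with the orphan receptor Nr2f2 at 2.22 ± 0.15 and the glucocorticoid receptor Nr3c1 at 1.41 ± 0.16, while Nr6a1, an orphan receptor of embryonic cells, changed by -1.14 ± 0.13. Of 16 T-box factors, 4 were called lower and 0 higher, among them Tbx3 (-2.74 ± 0.13) and Eomes (-2.05 ± 0.13). Lhx1, a LIM homeobox factor of early endoderm and mesoderm, went from 7.85, 7.93 and 7.85 to 5.48, 4.68 and 5.26. Foxh1, the DNA-binding partner of Smads in Nodal signalling, changed by -2.18 ± 0.16, and Foxa1, a forkhead factor of endodermal epithelia, by 1.38 ± 0.09. Of 36 Hox genes, 2 were called higher and 1 lower (1 and 3 after median centring), and 3 were above background at day 21.

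Among RNA-binding regulators, the 3 muscleblind genes rose, which encode splicing and localisation factors: Mbnl3 by 2.30 ± 0.16, Mbnl1 by 2.07 ± 0.13 and Mbnl2 by 1.58 ± 0.13. Esrp2, an epithelial splicing factor, rose by 1.86 ± 0.11. Embryonic RNA regulators were lower, with Lin28b at -0.99 ± 0.13, the ubiquitin ligase Trim71 at -1.08 ± 0.14 and Msi1 at -0.82 ± 0.14, beside Lin28a. In this list of 26, 7 genes were called higher and 7 lower.

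In signalling pathways, ligands, receptors and feedback genes were called in both directions, as were all genes (12.4% higher and 10.7% lower). For the activin, TGF-beta and BMP group, 10 of 42 genes were called higher (23.8%) and 14 lower (33.3%). The ligand Tgfb3 rose from 5.76, 5.77 and 6.16 to 9.34, 9.44 and 9.35, Tgfb2 by 1.38 ± 0.17, and the receptor Tgfbr2 by 1.76 ± 0.13. On the Nodal side, the ligand Nodal changed by -0.87 ± 0.12 and the co-receptors Tdgf1 and Cfc1 fell as given above. BMP-responsive Id3 (-1.98 ± 0.16), Smad6 (-1.28 ± 0.16) and Id1 (-0.86 ± 0.11) were lower, while Id2 (0.05 ± 0.12) did not pass.

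For FGF and ERK feedback, 3 of 29 genes were called higher (10.3%, near the 12.4% of all genes) and 10 lower (34.5%). The receptors Fgfr2 (1.59 ± 0.14) and Fgfr3 (1.16 ± 0.19) rose, whereas the ligand Fgf5 (-1.77 ± 0.18) and the ERK-responsive factors Etv5 (-2.22 ± 0.11) and Etv4 (-1.27 ± 0.10) fell. Of 47 Wnt pathway genes, 13 were called higher (27.7%) and 9 lower (19.1%). The R-spondin receptor Lgr5 (2.15 ± 0.18) and the receptor-degrading ligase Rnf43 (1.96 ± 0.12) rose, and the secreted inhibitors Dkk1 (-1.92 ± 0.15) and Frzb (-1.60 ± 0.17) fell. Of 30 Notch and Hedgehog genes, 6 were called higher (20.0%) and 2 lower (6.67%, under the 10.7% of all genes). After median centring 5 were lower. The Notch ligands Jag1 (2.18 ± 0.13) and Jag2 (1.08 ± 0.13) rose, and the Notch target Hey1 changed by -1.26 ± 0.13. Of 21 Hippo and YAP genes, 6 were called higher (28.6%) and 1 lower (4.76%), with a median of 0.17. Ankrd1 rose by 3.28 ± 0.13. In retinoic acid metabolism, 8 of 22 were called higher (36.4%) and 5 lower (22.7%). Dhrs3 (2.92 ± 0.16), Aldh1a1 (1.86 ± 0.21) and the receptor Rarb (1.03 ± 0.14) rose while the degrading enzyme Cyp26a1 (-1.68 ± 0.12) and the binding protein Crabp2 (-2.09 ± 0.20) fell. Of 29 semaphorins and plexins, 12 were called higher (41.4%) and 3 lower (10.3%, near the share of all genes), with Sema3d at 3.37 ± 0.25.

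Genes of DNA replication fell together in small steps. Of 31 measured, 25 were called lower and 0 higher, with a median of -0.71, and all 31 were above background on both days. The helicase subunit Mcm5 changed by -1.07 ± 0.11 and the origin-binding Orc1 by -1.25 ± 0.14. Of 29 mitotic genes, 20 were called lower and 0 higher (median -0.56), with the anaphase activator Cdc20 at -1.05 ± 0.14 and the checkpoint kinase Bub1 at -0.94 ± 0.14. Mki67 read 10.56, 10.75 and 10.67 at day 7 and 10.29, 10.53 and 10.09 at day 21. Its change of -0.36 ± 0.13 did not pass (limma adjusted p = 0.0714), although the day 21 arrays were all below the day 7 arrays, and it passed under 5 of the 13 alternatives. Of 27 cell cycle inhibitors and p53 targets, 15 were called higher and 0 lower (median 0.50). Cdkn1a, encoding p21, rose by 1.70 ± 0.09, Cdkn2b by 1.11 ± 0.14, Cdkn2a by 0.88 ± 0.18, the p130 gene Rbl2 by 1.78 ± 0.15, and the polo-like kinase Plk2 by 2.67 ± 0.14. Btg2 (2.37 ± 0.12) is also among the stress genes.

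Ribosome biogenesis followed the same direction. Of 27 genes, 21 were called lower and 1 higher (median -0.52), with the nucleolar proteins Nolc1 (-1.2 ± 0.10), Ddx21 (-1.04 ± 0.09) and Dkc1 (-0.98 ± 0.11) falling. Myc, which activates this programme, was the member that rose (0.39 ± 0.10), a call lost without day 7 replicate 1. Of 66 cytosolic ribosomal protein genes, 9 were called lower (13.6%, near the 10.7% of all genes) and 0 higher, and the count ran from 3 without day 7 replicate 1 to 19 after median centring. Mitochondrial ribosomal proteins gave 17 lower (23.9%, against 10.7% of all genes) and 0 higher of 71. The count fell to 8 lower without day 7 replicate 1 and to 10 without day 21 replicate 1.

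Fuel use genes were divided. Of 25 genes of fatty acid oxidation and peroxisomes, 11 were called higher and 0 lower (1 lower after median centring), with a median of 0.39. Cpt1a, which admits long-chain fatty acids to mitochondria, read 5.99, 5.93 and 6.37 at day 7 and 10.57, 10.65 and 10.16 at day 21. The coactivator Ppargc1a rose by 3.34 ± 0.21, the acyl-CoA thioesterase Acot1 by 2.42 ± 0.10 and the thiolase Acaa2 by 1.87 ± 0.18, while the regulator Ppara (0.12 ± 0.14) did not pass and lay below background. Of 35 genes of oxidative phosphorylation and the citrate cycle, 1 was called higher (Idh2, 0.83 ± 0.14) and 1 lower (Idh3a, -0.42 ± 0.10), 2.86% each way. The call of Idh3a was lost without day 7 replicate 1 or day 7 replicate 3. After median centring 1 was higher and 4 lower, and with genes above background alone 2 were higher and 4 lower. The median of that list was -0.04, and it turned to 0.02 after quantile normalisation was applied again.

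Among hypoxia and glycolysis genes, the glucose transporters and glycolytic enzymes called lower included Slc2a3 (-1.60 ± 0.13), Slc2a1 (-0.91 ± 0.11), Ldha (-0.68 ± 0.10) and Pgk1 (-0.50 ± 0.11). Other hypoxia-responsive genes rose, among them Ndrg1 (2.44 ± 0.10), Egln3 (1.17 ± 0.10) and Vegfa (0.73 ± 0.09), so that 8 of the 25 were higher and 7 lower. Of 24 genes of serine, glycine and folate metabolism, 9 were called lower and 2 higher. After Gldc these included the cytosolic Shmt1 (-0.83 ± 0.09) and Mthfd1 (-0.72 ± 0.09). Among 29 amino acid transporters, 10 were called higher and 8 lower. Slc7a7 (-2.79 ± 0.13) and Slc7a8 (-2.77 ± 0.14), exchangers of absorptive epithelia, fell, and the cystine importer Slc7a11 rose by 2.32 ± 0.20.

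Interferon-responsive genes were low at day 7 and higher on the other days. Of 26 measured, 21 were called higher at day 21 than at day 7 (80.8%) and 1 lower, with a median of 1.46. Ifi27, a small interferon-induced mitochondrial protein, read 5.49, 6.06 and 5.17 at day 7 and 10.60, 10.64 and 10.62 at day 21. Rtp4 (3.23 ± 0.15), Oasl2 (2.78 ± 0.10), the RNA sensor Ifih1 (2.31 ± 0.15), Ifit1 (2.27 ± 0.19) and Isg15 (1.54 ± 0.18) also rose. Samhd1, a dNTP hydrolase, was the member that fell (-0.79 ± 0.12). The mean log2 signal of the list lay between 7.74 and 7.85 on the day 4 arrays, 6.52 and 6.57 on the day 7 arrays, and 7.97 and 8.05 on the day 21 arrays. Day 4 and day 21 are both set against the same day 7 arrays here. Of 22 antigen presentation genes, 7 were called higher and 0 lower (1 lower after median centring), with the peptide transporter Tap1 at 1.60 ± 0.14 and B2m at 1.25 ± 0.13.

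**Figure D4:**
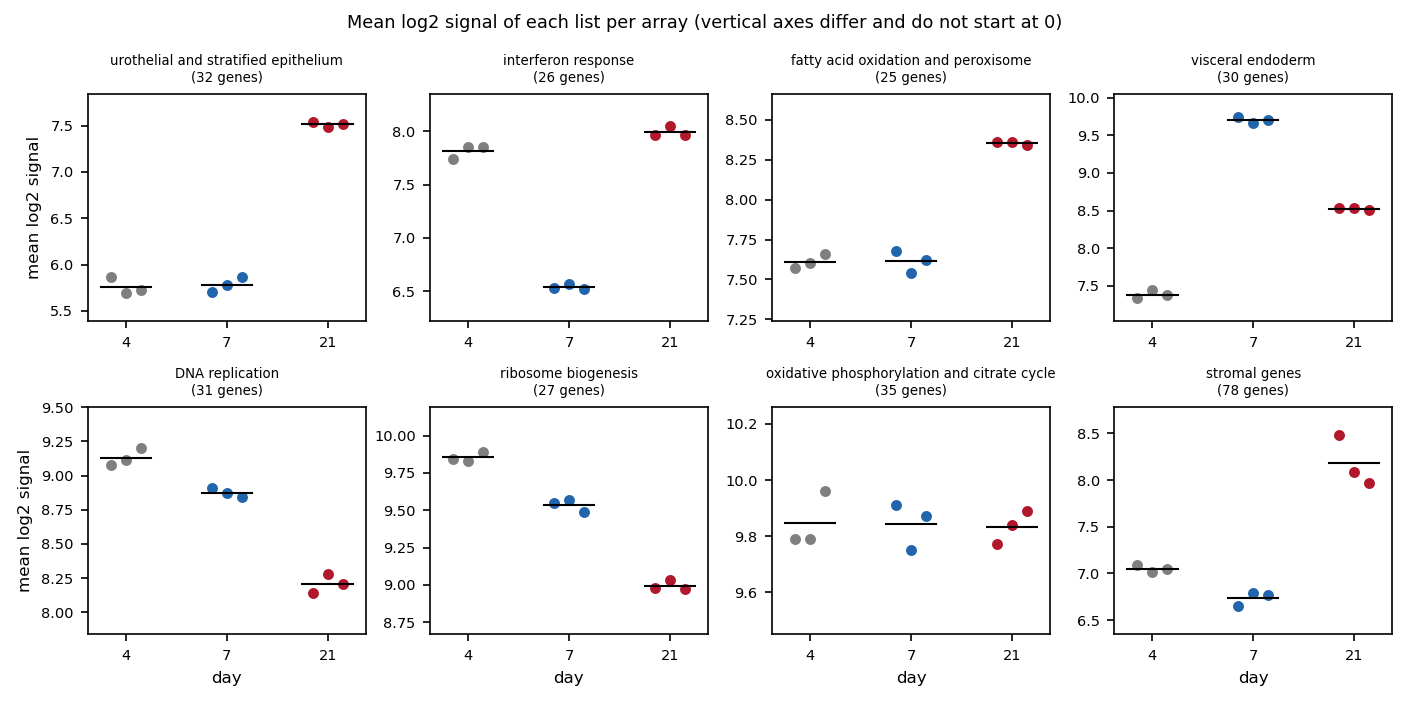
Mean log2 signal of 8 lists on each array of days 4, 7 and 21 (points) with the mean of 3 arrays (bars); the axes do not start at 0. Interferon genes dip at day 7, DNA replication and ribosome biogenesis are lowest at day 21, oxidative phosphorylation overlaps on all days, and stromal genes spread most at day 21.

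Small RNA genes of the imprinted Dlk1-Dio3 region formed the longest stretch of neighbouring genes with calls in 1 direction. This region is expressed from the maternal chromosome as long transcripts, among them Meg3 and Rian, that carry microRNAs and small nucleolar RNAs (snoRNAs), while Dlk1 and Dio3 are expressed from the paternal copy. The set was singled out after its values were seen. Of 54 measured genes from Dlk1 to Dio3 on chromosome 12, 47 were called lower at day 21 and 0 higher. In the order of the RefSeq annotation, all 29 neighbouring measured genes from Mir380 to Mir409 were called lower, as were all 15 from Mir493 to DQ267102. Genes read from 1 long transcript share a source and are not independent.

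Of the 43 microRNA genes, 40 were called lower (93.0%), with a median of -1.62. Of the 43, 36 were above background at day 7 and 21 at day 21, so many of the falls end at the floor. Of those 36, 35 were called lower, but choosing genes by their day 7 signal favours falls. The median log2 signal of the 43 was 5.99 at day 4, 7.98 at day 7 and 5.97 at day 21. Mir380 read 7.85, 7.45 and 7.58 at day 7 and 4.00, 5.37 and 4.50 at day 21, a change of -3.00 ± 0.33. Mir673 (-0.18 ± 0.19), Mir299a (-0.08 ± 0.16) and Mir882 (-0.55 ± 0.20) did not pass. Mir376b was called with a wide error (-2.06 ± 0.67, limma adjusted p = 0.0487), and leaving out an array lost its call in 5 of 6 cases. Over all 6 such analyses, 35 to 39 of the 43 were called lower. The 5 snoRNAs of the region all fell, by 1.24 (AF357425) to 1.94 (AF357355) on the log2 scale. The host transcript Rian read 12.19, 12.27 and 12.08 at day 7 and 11.03, 11.03 and 10.77 at day 21 (-1.23 ± 0.11), and Meg3 changed by -0.42 ± 0.10. The protein-coding ends of the region did not pass: Dlk1 changed by -0.24 ± 0.15 and Dio3 by -0.15 ± 0.12, the latter below background throughout.

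**Figure D5:**
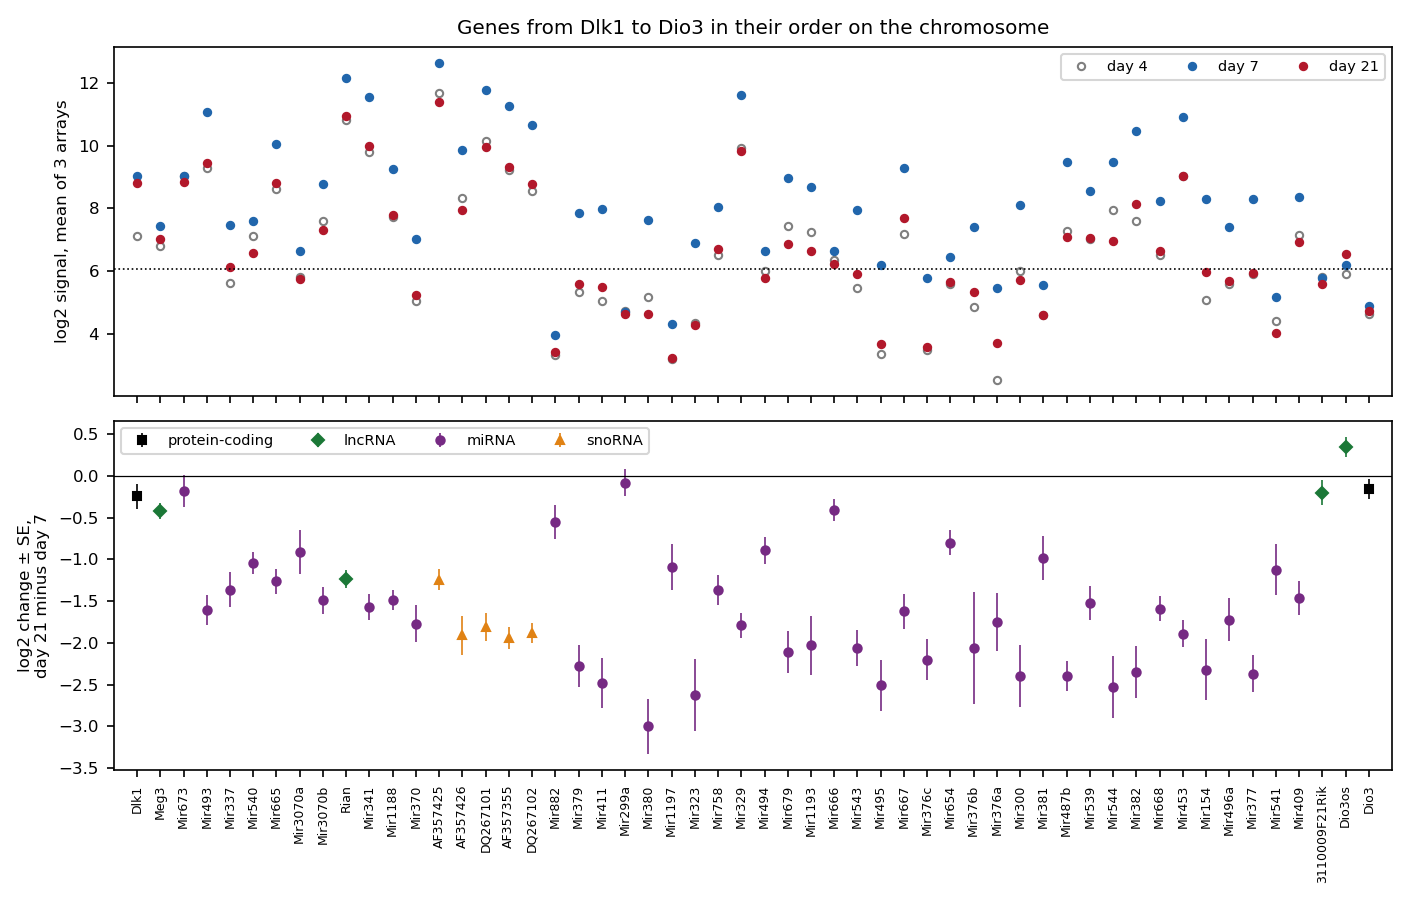
The 54 measured genes from Dlk1 to Dio3 in chromosomal order, with mean log2 signal on each day (top, dotted line at background) and log2 change with SE (bottom). Nearly every microRNA and snoRNA gene is highest at day 7, and Dlk1 and Dio3 at the ends stay near 0 change.

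The mature microRNAs of the region are shown because several genes that fell share a seed, the bases 2 to 8 that pair with target messages, given in capitals. Sequences are RefSeq entries for mouse assembly GRCm38.p6, on the plus strand, with miR-379-5p at chr12:109709065-109709085 and miR-411-3p at chr12:109710225-109710246, and 81 of the 85 called microRNA genes had an entry. The array's probe sets read the precursor or its host RNA, so the mature arms were not measured. Among the 40 genes called lower in the region there were 68 distinct seeds, of which 8 occurred in at least 2 genes. Those of Mir379 and Mir411, Mir379 and Mir1193, Mir376b and Mir376c, and Mir1197 and Mir758 follow. Mir380 and Mir495, also called lower, are added and were picked after their values were seen.
miR-379-3p: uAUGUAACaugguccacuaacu
miR-411-3p: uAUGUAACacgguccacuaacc
miR-379-5p: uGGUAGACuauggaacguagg
miR-1193-5p: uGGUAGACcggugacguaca
miR-376b-5p: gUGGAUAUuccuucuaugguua
miR-376c-5p: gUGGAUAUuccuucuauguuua
miR-1197-5p: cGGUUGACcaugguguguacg
miR-758-5p: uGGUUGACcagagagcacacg
miR-380-3p: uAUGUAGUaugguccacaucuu
miR-495-3p: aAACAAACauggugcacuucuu
Mir379 and Mir411 changed by -2.28 ± 0.25 and -2.48 ± 0.30, Mir1193 by -2.03 ± 0.35 and Mir376c by -2.20 ± 0.25. Mir1197 changed by -1.09 ± 0.27, Mir758 by -1.36 ± 0.18 and Mir495 by -2.51 ± 0.31. Mir1197 and Mir376c were below background on both days, and Mir379, Mir411, Mir376b, Mir495 and Mir380 at day 21. The sizes of these changes therefore depend on the floor and are not ranked.

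Elsewhere in the genome microRNA genes showed no such lean: 24 of 435 were called higher (5.52%) and 21 lower (4.83%), both below the shares of all genes, and 120 were above background at day 21. The rises included Mir122, the abundant microRNA of hepatocytes (2.38 ± 0.29), Mir205, a microRNA of stratified epithelia (2.03 ± 0.23), and Mir34a, a p53 target (1.22 ± 0.17). Precursors of let-7, the microRNAs that Lin28 proteins hold back, were below background at day 21. Mirlet7b (0.37 ± 0.12) and Mirlet7c-1 (0.77 ± 0.22) were called higher and Mirlet7d lower (-1.14 ± 0.27), although let-7b and let-7d share a seed, as their sequences show beside that of miR-205.
let-7b-5p: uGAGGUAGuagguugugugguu
let-7d-5p: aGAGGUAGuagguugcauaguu
miR-205-5p: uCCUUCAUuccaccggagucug
Of 75 snoRNA genes outside the region, 36 were called lower (48.0%) and 1 higher, with a median of -0.68. Genes named Snhg, for snoRNA host gene, gave 7 lower (46.7%, against 10.7% of all genes) and 1 higher of 15. They were taken by name and not matched to these snoRNAs.

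A second neighbouring family moved upward. Of 22 beta protocadherins, cell-surface recognition proteins encoded in a gene cluster, 13 were called higher and 0 lower, with a run of 9 neighbours from Pcdhb14 to Pcdhb22. Pcdhb17 read 4.6, 5.06 and 4.56 at day 7 and 7.77, 6.88 and 6.71 at day 21. At day 7, 0 of the 22 were above background, and at day 21, 5 were. With the test limited to genes above background on either day, 5 were called higher. Members could enter that test only through their day 21 signal, so this count is not a check on the rise. Their sequences are alike, so signals may be shared among them, and the set was chosen after its values were seen. Of 23 imprinted genes in a separate list, 4 were called higher and 6 lower, among them the zinc finger factor Plagl1 (3.73 ± 0.16) and the growth factor Igf2 (0.94 ± 0.09) upward and Phlda2 (-2.04 ± 0.16) and Mest (-1.17 ± 0.16) downward.

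Promoter sequences were examined for genes with an entry in RefSeq, from 250 bases before to 50 after the start site (GRCm38.p6). Over 15358 protein-coding genes the median was 14 CpG sites per promoter, and 29.9% of 18790 promoters had 5 or fewer. For genes at least 4-fold higher (208 genes, 259 promoters) the median was 7.0 and 44.0% had 5 or fewer. Genes at least 2-fold higher (724 genes, 907 promoters) did not share this: the median was 12 and 27.5% had 5 or fewer. For genes at least 4-fold lower (49 genes, 69 promoters) the median was 13 and 23.2% had 5 or fewer. At the 2-fold cut (237 genes, 324 promoters) lower genes had a median of 17 and 20.1% with 5 or fewer. The letters TATAAA, on either strand, were in 12.2% of all promoters. They were in 13.7% of those at least 2-fold higher and in 17.8% of those at least 4-fold higher. The letters CCAAT, on either strand, were in 37.7% of all promoters, in 58.6% of 29 DNA replication promoters and in 80.8% of 26 mitotic promoters. The share was 25% for 24 ribosome biogenesis promoters, and 34.0% and 33.3% for genes at least 2-fold and at least 4-fold lower, all under the share of all promoters. These shares are descriptions without a test, and a match is not evidence that a factor binds.

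The promoters of Cym and Slc13a4 are shown as those of a large riser and of the largest fall, and that of Cdc20 as the mitotic gene with the largest fall. Slc13a4 does not follow the medians above, since it holds fewer CpG sites than Cym. Capitals mark TATAAA in Cym, 29 bases before the start, and CCAAT or its reverse complement in Slc13a4 and Cdc20. The Cym promoter (chr3:107221683-107221982, minus strand) holds 7 CpG sites, that of Slc13a4 (chr6:35308077-35308376, minus strand) holds 6, and that of Cdc20 (chr4:118437294-118437593, minus strand) holds 25.
Cym: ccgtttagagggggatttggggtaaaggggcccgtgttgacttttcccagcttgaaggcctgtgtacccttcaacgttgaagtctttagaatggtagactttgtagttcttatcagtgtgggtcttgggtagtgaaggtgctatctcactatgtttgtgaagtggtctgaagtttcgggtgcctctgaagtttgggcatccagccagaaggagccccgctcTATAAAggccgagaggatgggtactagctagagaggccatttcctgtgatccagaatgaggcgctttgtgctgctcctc
Slc13a4: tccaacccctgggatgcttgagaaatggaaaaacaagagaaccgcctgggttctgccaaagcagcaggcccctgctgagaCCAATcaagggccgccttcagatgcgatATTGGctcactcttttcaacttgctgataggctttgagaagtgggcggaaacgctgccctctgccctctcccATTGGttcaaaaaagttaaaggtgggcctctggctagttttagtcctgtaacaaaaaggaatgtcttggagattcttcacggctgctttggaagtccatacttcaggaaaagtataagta
Cdc20: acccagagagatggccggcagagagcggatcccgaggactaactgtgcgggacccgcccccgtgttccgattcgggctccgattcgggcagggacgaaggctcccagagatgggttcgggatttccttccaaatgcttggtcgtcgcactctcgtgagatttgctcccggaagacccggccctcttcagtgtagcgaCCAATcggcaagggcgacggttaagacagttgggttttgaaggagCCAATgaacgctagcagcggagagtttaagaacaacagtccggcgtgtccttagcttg
Slc13a4 holds 3 such matches, at -170, -142 and -70, and Cdc20 holds 2, at -53 and -8.

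Markers of other cell types were measured beside these results, to be read against 12.4% of all genes called higher and 10.7% lower. The stromal list of 78 genes had 54 called higher and 3 lower (median 1.20), with a mean log2 signal of 6.65 to 6.79 at day 7 and of 8.48, 8.09 and 7.97 on day 21 replicates 1, 2 and 3. Dcn, a matrix proteoglycan, read 12.20, 11.52 and 10.96 on those arrays. Mesothelial markers gave 7 higher and 3 lower of 12, with a list mean of 6.74 to 6.90 at day 7 and 7.24 to 7.53 at day 21. Msln rose by 3.22 ± 0.20 and Upk3b by 1.26 ± 0.13. Wt1 (0.14 ± 0.11) did not pass, and Podxl was lower (-2.59 ± 0.12). With the test limited to genes above background on either day, 9 mesothelial members were tested, of which 4 were higher and 3 lower. Members could enter that test through their day 21 signal alone. Leukocyte markers gave 4 higher and 1 lower of 19 (list mean 5.65 to 5.77, then 6.03 to 6.17), with Cd14 at 3.48 ± 0.21 and Csf1r at 1.51 ± 0.11, whereas the pan-leukocyte marker Ptprc read 4.49 and 4.38, below background on both days. The part of stromal, mesothelial and leukocyte RNA in the rises of matrix, basement membrane, interferon and annexin genes was not tested.

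Endothelial markers gave 7 lower and 0 higher of 20 (list mean 6.17 to 6.30, then 5.77 to 5.95), with Kdr at -1.25 ± 0.21. Cardiac markers gave 8 lower and 1 higher of 23 (6.88 to 7.01, then 6.5 to 6.59), with 5 lower without day 21 replicate 2 and 12 after median centring. Neural markers gave 6 lower and 3 higher of 18 (6.45 to 6.56, then 6.23 to 6.37). Parietal endoderm markers, many of which are basement membrane genes, gave 7 higher and 3 lower of 16 (8.43 to 8.54, then 8.74 to 9.02). Airway markers gave 4 higher and 2 lower of 20. The higher were the lung protease Napsa (1.66 ± 0.18), the ciliogenesis factor Foxj1 (1.04 ± 0.13), Sftpd (0.57 ± 0.12) and Abca3 (0.48 ± 0.12), the lower were Slc34a2 (-1.60 ± 0.14) and Etv5 (-2.22 ± 0.11), and all 6 were above background at day 21. Sftpc (-0.06 ± 0.11) and Nkx2-1 (0.25 ± 0.16) were below background on both days. Trophoblast gave 2 higher and 1 lower of 11, smooth muscle 3 and 1 of 12, erythroid cells 0 and 1 of 9 (0 and 4 after median centring), and pancreas 0 and 2 of 15. The list means of airway, trophoblast, smooth muscle and pancreas markers overlapped between days 7 and 21. Hepatic genes gave 51 higher and 19 lower of 125 (list mean 6.10 to 6.16, then 6.74 to 6.81), and stress genes 38 higher and 6 lower of 60 (8.06 to 8.10, then 8.84 to 8.88).

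The genes that differed most among the day 21 arrays included stromal genes, a few secreted proteins and others such as Epha3 and Ifi202b. Among called genes above background, the 10 with the largest SD at day 21 (0.75 to 1.08, against a median of 0.14) were Serpina3n, Epha3, Fabp4, Serpina6, Mgp, Apod, Aspn, Ptn, Ifi202b and Lox. Of these, 9 were highest on day 21 replicate 1 and all 10 were lowest on replicate 3. Lox, which crosslinks collagen, read 8.47, 7.48 and 7.00, and the fatty acid carrier Fabp4 read 8.35, 7.36 and 6.53. Serpina6, which binds corticosteroids, was the exception, at 9.02, 9.05 and 7.57. Apod, a lipid carrier, changed by 1.37 ± 0.35, and its call was lost without day 7 replicate 1 (1.31) or replicate 2 (1.30). Epithelial risers differed in spread: Krt15, Upk1b and Cym had SDs of 0.21, 0.09 and 0.08 at day 21, while the gastric gene Vsig1 read 5.94, 6.85 and 7.14 (SD 0.63), lowest on replicate 1.

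Bright genes with narrow intervals marked the other end. The 95% interval of the change lay within 0.25 of 0 on the log2 scale for 369 genes and within 0.5 for 5513. The brightest of the former were Rps6 (-0.03 ± 0.08), Eef1a1 (0.01 ± 0.09), Rpl19 (-0.02 ± 0.08) and Rps3a1 (-0.01 ± 0.10) of the translation machinery. Next came Atp5md of ATP synthase (0.02 ± 0.10) and Cnbd2 (-0.02 ± 0.09). Cnbd2 was read by the brightest of its 3 probe sets, and whether that probe set reads Cnbd2 alone was not tested. Rps6 read 13.39, 13.36 and 13.36 at day 7 and 13.36, 13.30 and 13.35 at day 21, near the top of the array's range of 13.98, where signals can be compressed.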

How the data were processed

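The table deposited by the authors gives a log2 signal for each probe set on 9 arrays, 3 per day. Per the submitters' processing notes, RMA and Affymetrix Expression Console were used, and no version is given in the sources used here. This method brings arrays to a common distribution, which can hide a shift of all transcripts together. Per the labels' protocols, the RNA was amplified with a kit for very small inputs. The number of arrays limits the precision. The table held 34365 probe sets, of which 23521 had 1 gene symbol, 1814 several and 9030 none in the platform annotation. Kdf1 and Slc36a4, whose probe sets were called in opposite directions, were not named by the rule below.

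The mean of each day was estimated from the 9 arrays by lmFit and eBayes of limma (3.58.1, under R 4.3.3), tested two-sided, with Benjamini-Hochberg adjustment over 22180 genes and a call at adjusted p under 0.05. Errors are SE of log2 changes from this model. The procedure was tested on simulated data. The background reference was chosen with the data seen. The members, 43 gene lists and 29 symbol families were chosen with earlier results of these data known, so lists are described by counts and medians beside those of all genes. Genes named are the 15 largest rises and 15 largest falls whose arrays do not overlap. These leave out members of the hepatic, stromal and stress lists, non-coding or predicted models, clone names and receptor families. Also named are up to 4 called members per list and direction, 12 anchors, the 10 of largest spread and 6 stable bright genes. Members outside this rule were named after their values were seen: Krt8, Krt14, Krt18, Upk1a, Upk2, Upk3a, Trp63, Gkn1, Tff1, Tff2, Pgc, Cubn, Amn, Nanog, Dnmt1, Nodal, Id1, Id2, Cdkn2a, Cdkn2b, Ppara, Ifit1, Isg15, Wt1, Ptprc, Sftpc, Nkx2-1, Nfia, Nfic, Nfix, the markers of other cell types, the beta protocadherins, the small RNA genes and the genes of the Dlk1-Dio3 region. Titles share replicate numbers across days. Deviations from day means correlated at 0.023, 0.133 and 0.311 between same-numbered arrays of days 7 and 21, and the numbers were not taken as pairs. There were 13 alternatives, covering scaling, the model, probe sets, a background filter, a replicate block and leaving out each array. Array design coordinates are not used here.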

Additional observations from a re-analysis of the deposited data

Results flagged for a closer look

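Probe sets outside the gene analysis also held differences between days 21 and 7. Of 9030 probe sets without a symbol in the platform annotation, limma called 222 higher at day 21 (2.46%) and 342 lower (3.79%), with the fit and the adjustment over all 34365 probe sets. Of 1814 probe sets with several symbols, 101 were called higher (5.57%) and 130 lower (7.17%). Both were set apart because they lie outside the main measurement and are not named here. Groups of 3 arrays are too small for an outlier check.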

How the results depend on the processing

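Median centring of the arrays gave 3760 genes lower, against 2366 with deposited values, and no other count of genes over the whole array moved by more than 1.5 times. Leaving out an array in turn gave 2299 to 2697 genes higher and 1809 to 2351 lower, and 973 to 1094 at least 2-fold higher and 386 to 428 at least 2-fold lower. With the replicate number as a block, 2715 genes were higher and 2326 lower, of which 2617 and 2178 were shared with the fit without it. Quantile normalisation applied again gave 2584 higher and 2962 lower, so that rises were 46.6% of calls. No gene was called in opposite directions under any of the 13 alternatives. Of 8871 values of named genes and list counts under alternatives, 8471 stayed on their side of the threshold or within the stated range, 257 lost and 73 gained a call, 70 moved and 0 reversed.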
